A study of Mus musculus with 18 samples.

Results

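The response of mouse macrophages to bacterial lipopolysaccharide (LPS) was measured in cells that had already been given dimethyl itaconate, an ester of the mitochondrial metabolite itaconate that crosses the cell membrane. The comparison set the 3 DI+LPS libraries against the 3 DI libraries, which are 6 of the 18 libraries of the series, and its members are all 24052 genes of the deposited count table. Both groups were wild-type C57BL/6 bone marrow-derived macrophages, matured from marrow in M-CSF (20 ng/ml), which makes marrow progenitors become macrophages. DI+LPS cells received 0.25 mM dimethyl itaconate for 12 h and then 100 ng/ml LPS of E. coli 0111:B4 for 4 h, and DI cells received the same compound and no LPS. The 3 LPS and 3 vehicle libraries of the same experiment are used only at the end, to ask whether the LPS response differed from that of cells without the compound. No group in the main comparison was free of dimethyl itaconate, so its fold changes describe LPS on top of the compound.

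LPS is sensed by Toll-like receptor 4 together with CD14 and MD-2. One signalling branch runs through the adaptor MyD88 to NF-kB and the MAP kinases and switches on genes for inflammatory cytokines and chemokines. The other runs through TRIF to IRF3, which starts interferon beta, and secreted interferon then acts back on the cell through its receptor to raise a large set of antiviral genes. Macrophages also make itaconate themselves after LPS, through the enzyme encoded by Acod1, and dimethyl itaconate is an electrophile known to activate NRF2, the regulator of antioxidant genes.

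Libraries held 5959474, 4106831 and 4032466 counts in DI+LPS, against 6660270, 5233342 and 7629669 counts in DI. Levels are given as CPM, the counts relative to a library total that was scaled by the TMM method. Correlations of log2 CPM lay between 0.939 and 0.969 within groups and between 0.799 and 0.839 across them, and the first principal component, with 72.1% of the variance, separated the groups. The labelled cell type was checked on 9 macrophage markers, all of which were measured in both groups. Of these 4 rose, Adgre1, Spi1, Csf1r and Cd14, the last by 3.58 on the log2 scale, and 2 fell, Itgam and Fcgr3. The other 3, Lyz2 (lysozyme), Cd68 and Tyrobp, did not pass the test. Lyz2 averaged 1628 CPM in DI+LPS and 1810.1 CPM in DI, and Cd68 averaged 223 CPM in DI+LPS and 239 CPM in DI. Markers of T and NK cells summed to 0.585 to 2.13 CPM in DI+LPS and 0.829 to 1.27 CPM in DI, and Cd3e and Cd8a were at 0 in all 6 libraries. Those of B cells reached at most 1.24 CPM in DI+LPS and 0.496 CPM in DI, with Pax5 at 0, and those of dendritic cells at most 2.79 CPM in DI+LPS and 3.27 CPM in DI, with Flt3 at 0. The 10 neutrophil markers found in the table summed to 272 to 395 CPM in DI+LPS and 157 to 257 CPM in DI, of which only S100a8, which macrophages also make, passed the test among the 6 tested. Its value was 181 CPM in DI+LPS and 67.1 CPM in DI, while Mpo and Elane were at or near 0. Fibroblast and endothelial markers summed to 29.6 to 43.5 CPM in DI+LPS and 22.6 to 27.2 CPM in DI, and none of the 4 tested passed.

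LPS changed a large part of the measured transcriptome of the compound-treated cells. Of 9766 genes with enough counts to test, 1657 rose in DI+LPS and 1539 fell, at an adjusted p under 0.05 by edgeR's quasi-likelihood test. That is 17.0% and 15.8% of the genes tested, 32.7% together, and each list below is to be read against these shares. A gene near 0 in DI had enough counts to test only through its DI+LPS libraries, and the reverse held for falls. In lists nearly silent in DI, the share of tested members that rose is therefore partly set by this filter. Rises were larger than falls: 299 genes rose and 134 fell by at least 8-fold, and 166 rose and 50 fell by at least 16-fold. The libraries of the groups did not overlap for 2209 genes higher in DI+LPS (22.6%) and 2225 lower (22.8%), 45.4% of those tested. Against a 2-fold change instead of none (edgeR's glmTreat), 747 genes rose (7.65%) and 437 fell (4.47%). The median log2 fold change over all tested genes was -0.05. The even split of calls depends on the scaling: the 10 most abundant genes held 20.8% to 25.3% of the counts in DI+LPS and 13.3% to 16.8% in DI, and with library totals alone, without TMM, the median shifted to -0.62, with 919 genes higher and 3792 lower. In bulk RNA, fewer cells of a type and less RNA per cell cannot be told apart, and the labels do not say whether replicates came from separate animals or cultures, so p-values measure only the spread between these samples, which may be technical.

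**Figure D1:**
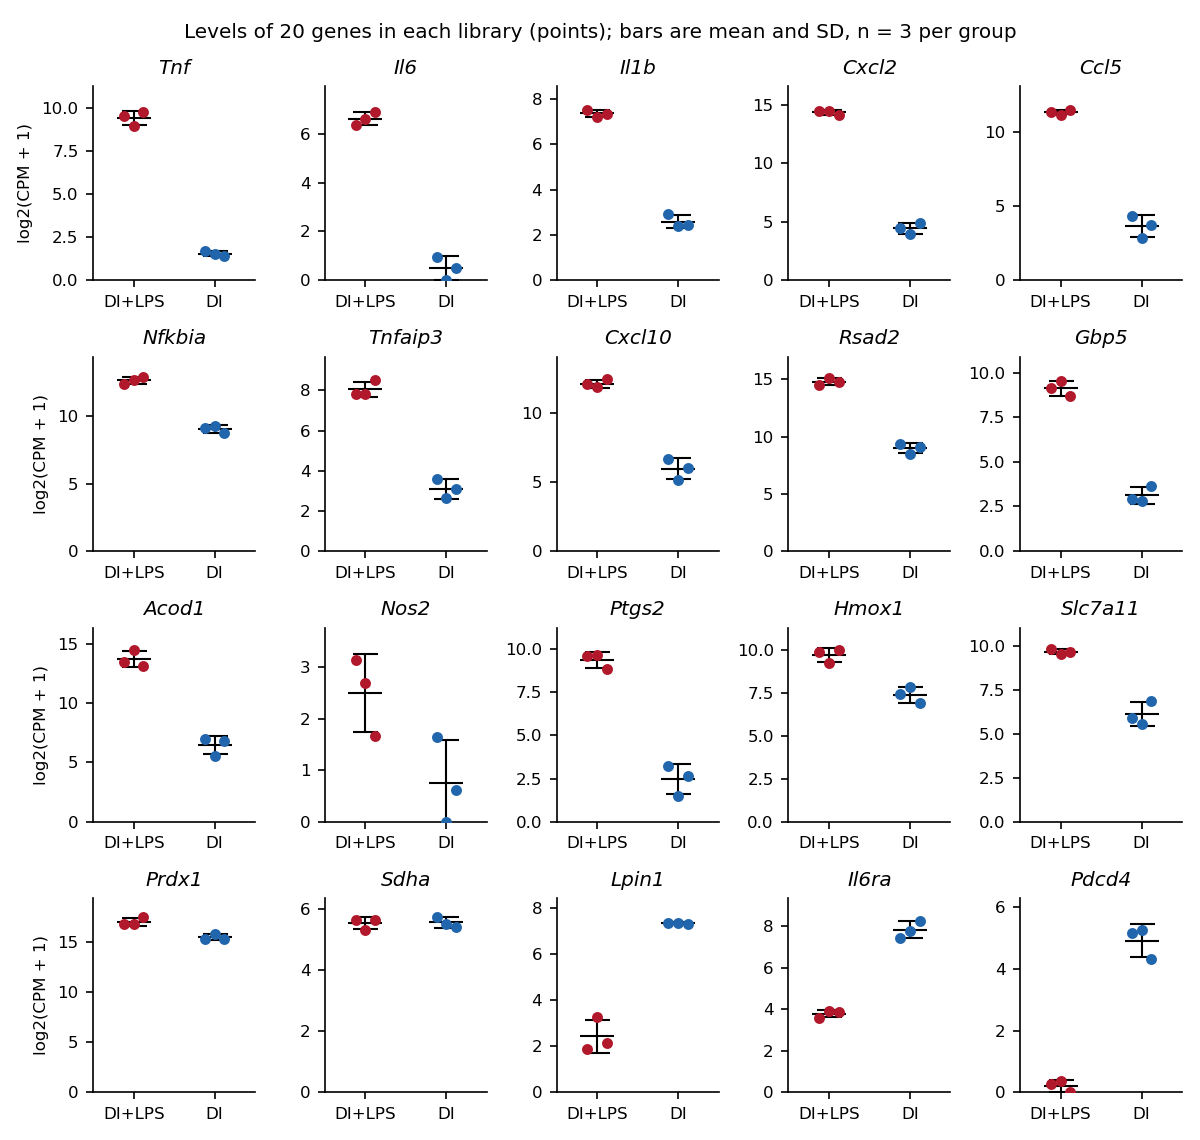
Levels of 20 genes in each library, as log2(CPM + 1), with DI+LPS on the left and DI on the right of each panel; points are libraries and bars the mean and SD (n = 3 per group). The groups separate in every panel except Sdha, and in Nos2 by a fraction of a CPM.

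Chemokines that draw neutrophils gave the largest rises among genes of at least 10 CPM. Cxcl2 (Entrez 20310, chr5:90903899-90905938), which encodes MIP-2, had 22172, 23368 and 17435 CPM in DI+LPS libraries, against 21.1, 14.4 and 29.3 CPM in DI libraries. Cxcl3 (Entrez 330122, chr5:90786101-90788093) had 1408, 1490.4 and 1648 CPM in DI+LPS libraries, against 2.25, 0.992 and 1.27 CPM in DI libraries, and Cxcl1 (Entrez 14825, chr5:90891245-90893121) had 746, 820.3 and 840.2 CPM in DI+LPS libraries, against 1.3, 0 and 1.48 CPM in DI libraries. Each gene was high in all 3 DI+LPS libraries. In all 3 DI libraries Cxcl1 and Cxcl3 were near the bottom of the measured range, while Cxcl2 was clearly measured, with 543 counts over the group. Log2 fold changes were 9.93 ± 0.39 (SE, adjusted p = 6.9e-13) for Cxcl3, 9.92 ± 0.41 (SE, adjusted p = 1.3e-12) for Cxcl2 and 9.60 ± 0.48 (SE, adjusted p = 1.4e-11) for Cxcl1, which correspond to 976-fold, 966-fold and 777-fold. Of the 17 chemokines tested, 15 rose and none fell, with a median log2 fold change of 5.16 against -0.05 over all tested genes. Summed over the list, chemokine transcripts reached 32806 to 35169 CPM in DI+LPS and 583 to 1011 CPM in DI, and the summed level did not overlap between groups.

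The CC chemokines rose with them. Ccl5, which attracts T cells and monocytes, had 2585, 2249 and 2753 CPM in DI+LPS libraries, against 19.4, 6.12 and 12.2 CPM in DI libraries, a log2 fold change of 7.63 ± 0.41 (SE, adjusted p = 2.7e-11). Ccl3 and Ccl4, the macrophage inflammatory proteins, averaged 759 CPM in DI+LPS and 8.63 CPM in DI for Ccl3, and 1044 CPM in DI+LPS and 29 CPM in DI for Ccl4. Ccl2, which recruits monocytes, was less abundant, with 49.8, 46.9 and 73.8 CPM in DI+LPS libraries, against 1.78, 2.48 and 2.43 CPM in DI libraries, with a log2 fold change of 4.66 ± 0.33 (SE, adjusted p = 7.7e-10). Ccl9, abundant in both groups, averaged 1439 CPM in DI+LPS and 366 CPM in DI. Ccl6 and Cxcl14 did not pass the test, with log2 fold changes of -0.10 (adjusted p = 0.81) and -0.27 (adjusted p = 0.69). On chromosome 11, 7 of the 9 tested CC chemokine genes rose, with Ccl6 and Ccl8 not passing. On chromosome 5 all 6 tested genes of the 9 in the Cxcl5 to Areg cluster rose, among them Pf4, platelet factor 4, at 319 CPM in DI+LPS and 53.8 CPM in DI. Without the first DI+LPS library 5 of them were called, Areg being lost.

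Inflammatory cytokines rose in the same samples. Tnf (Entrez 21926, chr17:35199367-35202007), the gene of tumour necrosis factor, had 727, 482 and 847 CPM in DI+LPS libraries, against 2.25, 1.82 and 1.69 CPM in DI libraries. Il6 (Entrez 16193, chr5:30013114-30019975) had 80.6, 96.9 and 118 CPM in DI+LPS libraries, against 0.947, 0 and 0.422 CPM in DI libraries. Both genes were close to silent in DI and high in each DI+LPS library, with log2 fold changes of 8.46 ± 0.37 (SE, adjusted p = 1.9e-12) for Tnf and 7.58 ± 0.46 (SE, adjusted p = 1.1e-10) for Il6. Il1b (Entrez 16176, chr2:129364569-129371164), the precursor of interleukin 1 beta, had 185, 149 and 161 CPM in DI+LPS libraries, against 6.51, 4.3 and 4.43 CPM in DI libraries, and its antagonist Il1rn had 80, 81.1 and 106 CPM in DI+LPS libraries, against 15.9, 8.27 and 11.4 CPM in DI libraries. The log2 fold change was 5.01 ± 0.30 (SE, adjusted p = 7.8e-11) for Il1b and 2.90 ± 0.29 (SE, adjusted p = 1.2e-07) for Il1rn. Of 19 cytokine and growth factor genes tested, 16 rose, 1 fell and 2 did not pass, with a median log2 fold change of 3.21. Among the risers Il15, which sustains NK cells and memory T cells, averaged 956 CPM in DI+LPS and 68.4 CPM in DI. Il27 averaged 266 CPM in DI+LPS and 10.4 CPM in DI, and Csf1, the growth factor M-CSF itself, averaged 85.5 CPM in DI+LPS and 15.6 CPM in DI. Lif, a cytokine of the interleukin 6 family, was at 0 in all 3 DI libraries and at 3.32, 7.31 and 8.68 CPM in DI+LPS, which is at least 47.4-fold higher against a floor of 3 counts over the DI group. Vegfa, the vascular growth factor, was the gene that fell, with 13.3, 16.2 and 14.3 CPM in DI+LPS libraries, against 48.8, 50.7 and 53.4 CPM in DI libraries.

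Some classical LPS cytokines were barely detected in either group. Il12b, the p40 subunit of interleukins 12 and 23, had only 6.44, 12.8 and 6.2 CPM in DI+LPS libraries, against 1.07, 1.16 and 3.27 CPM in DI libraries, and its log2 fold change was 2.15 ± 0.54 (SE, adjusted p = 0.004). Il10, the anti-inflammatory cytokine, had 7 counts in DI+LPS and 2 in DI over all libraries, a ratio of 7.21 with a 95% counting interval of 1.37 to 71.2, and was not tested. Ifnb1, interferon beta, was at 0 in DI and at 1.56, 0.914 and 2.79 CPM in DI+LPS, 20 counts in all, which is at least 13.7-fold higher against 3 counts over the DI group. No molecular identifiers are described for the PCR copies, so an interval or floor here reflects the error of counting alone. For Il10 and Ifnb1 the counts were too few to enter the test.

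NF-kB subunits and the inhibitors that NF-kB itself induces rose almost without exception. Of 20 genes tested, 18 rose and none fell (median log2 fold change 2.65). Nfkbia (Entrez 18035, chr12:55489409-55492647), which encodes the inhibitor IkB-alpha, had 5426, 6627 and 7484 CPM in DI+LPS libraries, against 566, 619 and 421 CPM in DI libraries, 12.2-fold higher. Tnfaip3, the ubiquitin-editing inhibitor A20, had 225, 224 and 361 CPM in DI+LPS libraries, against 11, 5.12 and 7.49 CPM in DI libraries, 33.9-fold higher. Both separated fully between the groups, as did Nfkbie, which encodes IkB-epsilon, and Tnip3, a partner of A20, with log2 fold changes of 4.54 and 4.79. Among the subunits themselves, Nfkb1 (p105) rose most, by 3.59 ± 0.26 (SE, adjusted p = 1.1e-09), then Relb by 2.77, Nfkb2 by 2.50, Rel by 2.21 and Rela by 1.70. Nfkbid and Cyld did not pass the test (adjusted p = 0.11 and 0.11).

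Nfkbiz encodes IkB-zeta, a nuclear cofactor made after Toll-like receptor signalling that is needed for a further set of LPS genes. It had 164, 194 and 140.2 CPM in DI+LPS libraries, against 6.99, 2.81 and 7.28 CPM in DI libraries, a log2 fold change of 4.83 ± 0.34 (SE, adjusted p = 6.2e-10). Of 13 genes listed as dependent on it, 9 were tested and all 9 rose, with a median log2 fold change of 4.66. They include Saa3, an acute-phase protein, at 146 CPM in DI+LPS and 1.91 CPM in DI, Slpi, a protease inhibitor, at 55 CPM in DI+LPS and 1.23 CPM in DI, and Fpr2, a formyl peptide receptor, at 261 CPM in DI+LPS and 7.81 CPM in DI. Lcn2, the iron-trapping lipocalin, rose by a log2 fold change of 2.10. Csf2 and Ccl17 were at 0 in all 6 libraries.

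Early response factors moved less uniformly. Of 22 tested, 9 rose, 2 fell and 11 did not pass. Maff and Fosl1 rose most, at 51 CPM in DI+LPS and 2.92 CPM in DI for Maff, and 12.9 CPM in DI+LPS and 1.36 CPM in DI for Fosl1, while Junb had 397, 495 and 1046 CPM in DI+LPS libraries, against 135, 197 and 111 CPM in DI libraries. Atf3, a repressor of inflammatory genes that stress also induces, was already high in DI, with 495, 575 and 312 CPM in DI+LPS libraries, against 255, 315 and 298 CPM in DI libraries. Its log2 fold change of 0.67 ± 0.26 (SE, adjusted p = 0.052) missed the threshold. Fos and Jun did not pass, with log2 fold changes of 0.73 and -0.53. Bhlhe40, a transcription factor that represses Il10 in mouse immune cells, fell to 0.976, 1.83 and 1.86 CPM in DI+LPS libraries, against 19.8, 22 and 18.3 CPM in DI libraries. The MAP kinase phosphatases split in the same way. Dusp1, Dusp4, Dusp5 and Dusp16 rose by log2 fold changes of 2.00 to 2.93, and Dusp3 fell by 2.30 on the log2 scale, with 87.7 CPM in DI+LPS and 433 CPM in DI. Among proteins that destroy cytokine mRNA, Zfp36 (tristetraprolin) and Zc3h12c rose by 2.52 and 3.93 on the log2 scale, and Zc3h12a (Regnase-1) averaged 69.9 CPM in DI+LPS and 8.72 CPM in DI. The tristetraprolin relatives Zfp36l1 and Zfp36l2 fell by 2.93 and 2.04 on the log2 scale, so members of this family changed in opposite directions.

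The type I interferon list held the most rising genes of the lists described. Of 49 listed genes tested, 47 rose and none fell, with a median log2 fold change of 4.52, and the summed level of the list was 60887 to 74936 CPM in DI+LPS and 2119 to 2536 CPM in DI. Rsad2 (Entrez 58185, chr12:26442743-26456452), the antiviral enzyme viperin, had 23366, 35146 and 27402 CPM in DI+LPS libraries, against 643, 363 and 544 CPM in DI libraries, and was the third most abundant transcript by its mean over the 6 libraries. Ifit1, which binds viral RNA caps, had 7864, 8921 and 7395 CPM in DI+LPS libraries, against 121, 58 and 159 CPM in DI libraries. Both rose by more than 50-fold, 55.4-fold for Rsad2 and 71.5-fold for Ifit1, and neither overlapped between groups. Oasl1 and Usp18, which restrain interferon production and signalling, rose by 6.82 ± 0.33 (SE, adjusted p = 8.1e-12) and 6.36 ± 0.38 (SE, adjusted p = 7.5e-11). Ifi27 and Ifi27l2a were the listed genes that did not pass, at 69.1 CPM in DI+LPS and 48.3 CPM in DI, and 67 CPM in DI+LPS and 41.2 CPM in DI.

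**Figure D2:**
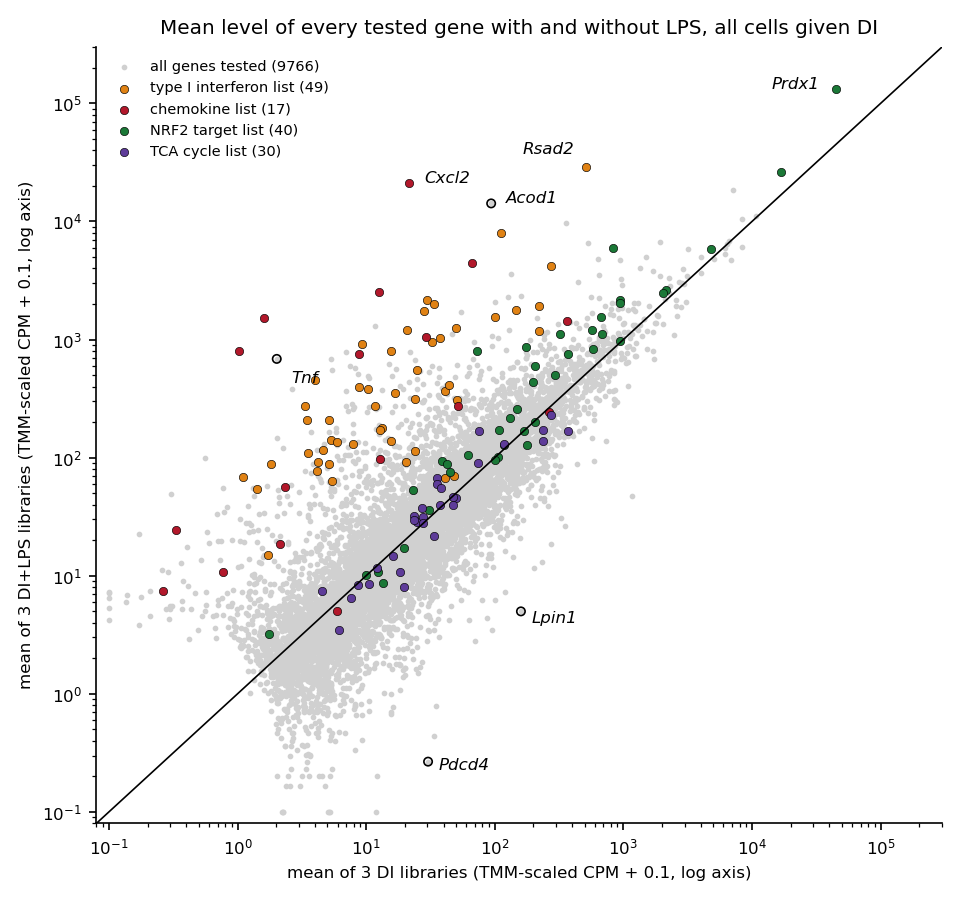
Mean level of each of the 9766 tested genes in 3 DI+LPS libraries (vertical) and 3 DI libraries (horizontal), both as TMM-scaled CPM + 0.1 on log axes, with 4 gene lists coloured. Interferon and chemokine genes lie far above the line of equal levels, TCA cycle genes along it, and Lpin1 and Pdcd4 below it.

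Interferon-induced families that sit side by side in the genome rose together. All 5 tested genes of the Ifit cluster on chromosome 19 rose (median 6.16), all 10 tested p200 genes on chromosome 1 (4.80), all 4 tested Gbp genes on chromosome 3 (5.45) and all 3 on chromosome 5 (3.61). Of 8 Schlafen genes on chromosome 11, 7 rose, and Slfn10-ps, a pseudogene, did not pass, with 115 CPM in DI+LPS and 106 CPM in DI. Ifi208, a p200 gene, was nearly absent in DI, with 22.6, 25.9 and 18.3 CPM in DI+LPS libraries, against 0, 0 and 0.211 CPM in DI libraries, and the ratio of its counts was 268 (95% counting interval 73.4 to 2224). Close copies such as Ifi204 and Ifi205, or Ifit3 and Ifit3b, share sequence, so counts may be split between them by the authors' assignment of reads.

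The guanylate-binding proteins and immunity-related GTPases, which attack vacuoles that hold bacteria or parasites, rose in 12 of 12 tested genes (median 5.04). The list held 19 genes, and those near 0 in DI could enter the test only through DI+LPS, so this share is partly set by the filter. Gbp5 (Entrez 229898, chr3:142496934-142522344) had 554, 749 and 406 CPM in DI+LPS libraries, against 6.51, 5.95 and 11.6 CPM in DI libraries, a log2 fold change of 6.13 ± 0.36 (SE, adjusted p = 6.1e-11). Gbp6 rested largely on the first DI+LPS library, with 48.2, 6.7 and 4.34 CPM in DI+LPS libraries, against 0.355, 1.16 and 0.422 CPM in DI libraries. Among the regulators of this response, Irf7 rose by 4.54 ± 0.39 (SE, adjusted p = 9.2e-09) and Irf1 by 3.34 ± 0.26 (SE, adjusted p = 2.3e-09), while Irf3, which is activated by phosphorylation, did not pass (adjusted p = 0.56). Stat2, which carries the interferon signal to the nucleus, rose by a log2 fold change of 3.21. The feedback inhibitors Socs1 and Socs3 were low in DI. Socs3 had 139, 99.6 and 113 CPM in DI+LPS libraries, against 4.86, 4.13 and 3.27 CPM in DI libraries, and Socs1 had 129, 119 and 173 CPM in DI+LPS libraries, against 8.29, 6.45 and 4.85 CPM in DI libraries. Irf8, a lineage factor of macrophages, fell by 0.87 on the log2 scale (adjusted p = 0.012), a call that was lost without the first DI+LPS library (adjusted p = 0.1) and in a fit with all 12 libraries of the experiment (adjusted p = 0.17).

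Promoters of these genes were read in windows from 250 bases before to 50 after the start site (RefSeq, GRCm38.p6). A pair of short patterns was searched on both strands: GGGA and TTCC with any 2 bases (NN) between them, written here as kB, part of the sites NF-kB binds, and GAAA and GAAA with NN between them, written as ISRE, part of the sites bound by IRFs. Of 7932 tested genes with a window, 1.79% held the kB pattern and 3.96% the ISRE pattern. Among genes that rose at least 16-fold, 8.15% of 135 held kB and 23.7% held ISRE, and among the 1247 that fell the shares were 1.6% and 2.33%. These are shares of letter matches in the window and carry no measurement of binding. Kappa B matches lay in 4 of 10 chemokine windows, and ISRE matches in 18 of 36 windows of the interferon list and 7 of 8 of the GTPase list. Neither pattern was found in the 34 windows of NRF2 targets. The windows below show matches in capitals for genes described above and for Isg15, whose level is not given here. They were chosen after the values of the genes were seen. Cxcl1, Cxcl2 and Cxcl3, the genes with the largest rises, hold the same run of 11 capitals, which the kB pattern matches on both strands with overlap.
Cxcl1 (chr5:90891154-90891204, plus strand): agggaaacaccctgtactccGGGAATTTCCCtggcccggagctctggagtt
Cxcl2 (chr5:90903782-90903832, plus strand): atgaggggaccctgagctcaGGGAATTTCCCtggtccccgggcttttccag
Cxcl3 (chr5:90786008-90786058, plus strand): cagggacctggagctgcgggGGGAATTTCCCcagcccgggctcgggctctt
Nfkbia (chr12:55492648-55492696, minus strand): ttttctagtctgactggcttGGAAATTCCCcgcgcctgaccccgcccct
Ifit1 and Isg15 hold repeated ISRE matches, which overlap in Isg15, and Cxcl10 and Gbp5 hold 1 match of each kind.
Ifit1 (chr19:34640765-34640833, plus strand): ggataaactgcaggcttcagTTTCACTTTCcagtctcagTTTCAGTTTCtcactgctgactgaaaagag
Isg15 (chr4:156200855-156200916, minus strand): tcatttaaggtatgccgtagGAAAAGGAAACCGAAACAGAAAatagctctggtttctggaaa
Cxcl10 (chr5:92349019-92349122, minus strand): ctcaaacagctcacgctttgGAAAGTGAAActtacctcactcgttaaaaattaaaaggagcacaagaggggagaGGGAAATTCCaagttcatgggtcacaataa
Gbp5 (chr3:142496749-142496886, plus strand): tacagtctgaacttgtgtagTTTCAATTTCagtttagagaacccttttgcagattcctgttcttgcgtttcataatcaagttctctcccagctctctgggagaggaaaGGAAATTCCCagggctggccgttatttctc

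**Figure D3:**
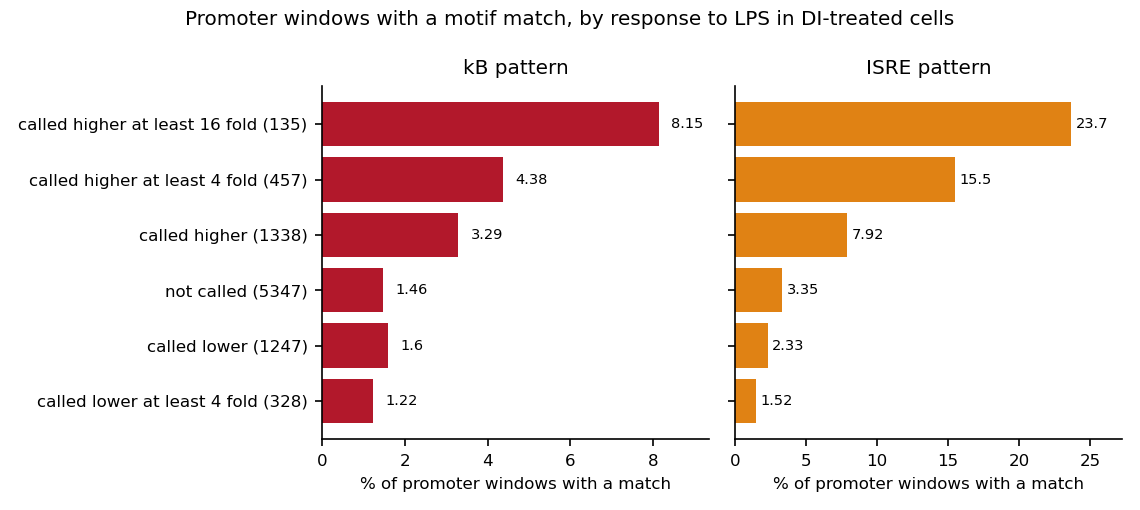
Share of promoter windows (300 bases) that hold the kB or the ISRE pattern, in percent, for tested genes grouped by their response in DI+LPS against DI; numbers in brackets are windows per group. Shares are highest for genes that rose at least 16-fold, 8.15% for kB and 23.7% for ISRE.

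The machinery that senses LPS changed at some steps. Of 23 tested genes of the pathway, 10 rose and none fell. Cd14, the LPS co-receptor, had 425, 492 and 359 CPM in DI+LPS libraries, against 39.7, 25.5 and 41.1 CPM in DI libraries, 12-fold higher. Tlr4 itself did not pass, with 133 CPM in DI+LPS and 89.4 CPM in DI (log2 fold change 0.58, adjusted p = 0.062), nor did Ly96, which encodes MD-2, Ticam1 (TRIF) or Ticam2. Myd88, Irak2 and Irak3 rose by 2.25, 2.36 and 2.58, the last of them an inhibitory kinase of the pathway. Peli1, a ubiquitin ligase of the pathway, reached 2012, 3022 and 1977 CPM in DI+LPS libraries, against 155, 138 and 185 CPM in DI libraries. Other Toll-like receptors changed unevenly. Tlr1, Tlr2, Tlr3 and Tlr6 rose, with Tlr2, the lipopeptide receptor, at 51.7, 51.8 and 55.8 CPM in DI+LPS libraries, against 2.13, 1.49 and 2.32 CPM in DI libraries, while Tlr7, Tlr8, Tlr9 and Tlr13 did not pass.

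In the inflammasome list 7 of 15 tested genes rose and 2 fell (5 and 4 with library totals alone). Nlrp3, the sensor that is known to need priming by LPS, had 659.7, 686 and 671 CPM in DI+LPS libraries, against 19.8, 29.1 and 22.4 CPM in DI libraries, a log2 fold change of 4.83 ± 0.28 (SE, adjusted p = 6.1e-11). Casp4, the receptor of cytosolic LPS, and Casp1 rose by 3.42 ± 0.28 (SE, adjusted p = 6.8e-09) and 1.74 ± 0.35 (SE, adjusted p = 0.00059). Pycard, the adaptor ASC, did not pass (log2 fold change -0.46, adjusted p = 0.21). Of the falls, Nlrp10 and Nlrp1b, neither held in all fits that left out 1 library (adjusted p up to 0.076 without the third DI library for Nlrp10, and 0.076 without the third DI+LPS library for Nlrp1b).

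The cells raised their own itaconate-making enzyme although they had been given an itaconate ester. Acod1 (Entrez 16365, chr14:103047012-103056573) had 11524, 22068 and 9049.9 CPM in DI+LPS libraries, against 126, 46.1 and 109 CPM in DI libraries. Every DI+LPS library was far above every DI library, with a log2 fold change of 7.24 ± 0.46 (SE, adjusted p = 1.8e-10). Nos2 (Entrez 18126, chr11:78920787-78960226), the inducible nitric oxide synthase, had only 7.8, 5.49 and 2.17 CPM in DI+LPS libraries, against 2.13, 0 and 0.528 CPM in DI libraries. Its groups came within a fraction of a CPM of each other, and its log2 fold change of 2.48 ± 0.78 (SE, adjusted p = 0.018) did not pass without the second or the third DI library (adjusted p = 0.062 and 0.077), without the first DI+LPS library (0.13) or with library totals alone (0.052). Genes that supply the nitric oxide synthase rose strongly. Slc7a2, the arginine transporter, had 476, 453 and 609 CPM in DI+LPS libraries, against 5.92, 11.2 and 8.34 CPM in DI libraries, and Gch1, which makes its cofactor tetrahydrobiopterin, averaged 244 ± 56.4 CPM in DI+LPS libraries and 15.8 ± 0.998 CPM in DI libraries (SD, n = 3 each). Of 10 genes tested on this list 7 rose and none fell.

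Prostaglandin synthesis rose at its inducible steps. Ptgs2 (Entrez 19225, chr1:150100031-150108234), cyclooxygenase 2, had 765, 813 and 456 CPM in DI+LPS libraries, against 8.53, 1.82 and 5.38 CPM in DI libraries, a log2 fold change of 6.97 ± 0.44 (SE, adjusted p = 1.4e-10). Ptges, prostaglandin E synthase, and Pla2g4a, which frees arachidonic acid, rose by 4.38 ± 0.32 (SE, adjusted p = 1.3e-09) and 1.94 ± 0.29 (SE, adjusted p = 1.9e-05). In the same list Hpgds (prostaglandin D synthase) and Lta4h (leukotriene A4 hydrolase) fell, with Hpgds at 29.5 CPM in DI+LPS and 167 CPM in DI and Lta4h at 66.3 CPM in DI+LPS and 211 CPM in DI. Over 15 tested genes, 4 rose and 4 fell, with 2 falls among the calls when 12 libraries were fitted.

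Genes for contact with T cells rose in 10 of 10 tested (median 3.75). Cd40 had 266, 265 and 294 CPM in DI+LPS libraries, against 7.11, 5.79 and 7.81 CPM in DI libraries, 39.5-fold higher, and Cd274, the checkpoint ligand PD-L1, averaged 591 ± 81.9 CPM in DI+LPS libraries and 32.3 ± 3.92 CPM in DI libraries (SD, n = 3 each). The adhesion ligands Icam1 and Vcam1 rose by 4.61 and 4.49 on the log2 scale. The MHC class I pathway rose in 14 of 16 tested genes, with a lower median of 1.94. Tap1, a subunit of the peptide transporter, and Nlrc5, the activator of class I genes, led it with 4.03 ± 0.30 (SE, adjusted p = 1.7e-09) and 3.64 ± 0.36 (SE, adjusted p = 8.9e-08), while H2-K1 averaged 4969 CPM in DI+LPS and 1508 CPM in DI. Of the 7 tested genes of MHC class II presentation none passed the test by edgeR, and none passed by DESeq2. Their levels were low apart from the protease Ctss, with Cd74 at 22.3 CPM in DI+LPS and 16.4 CPM in DI.

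**Figure D4:**
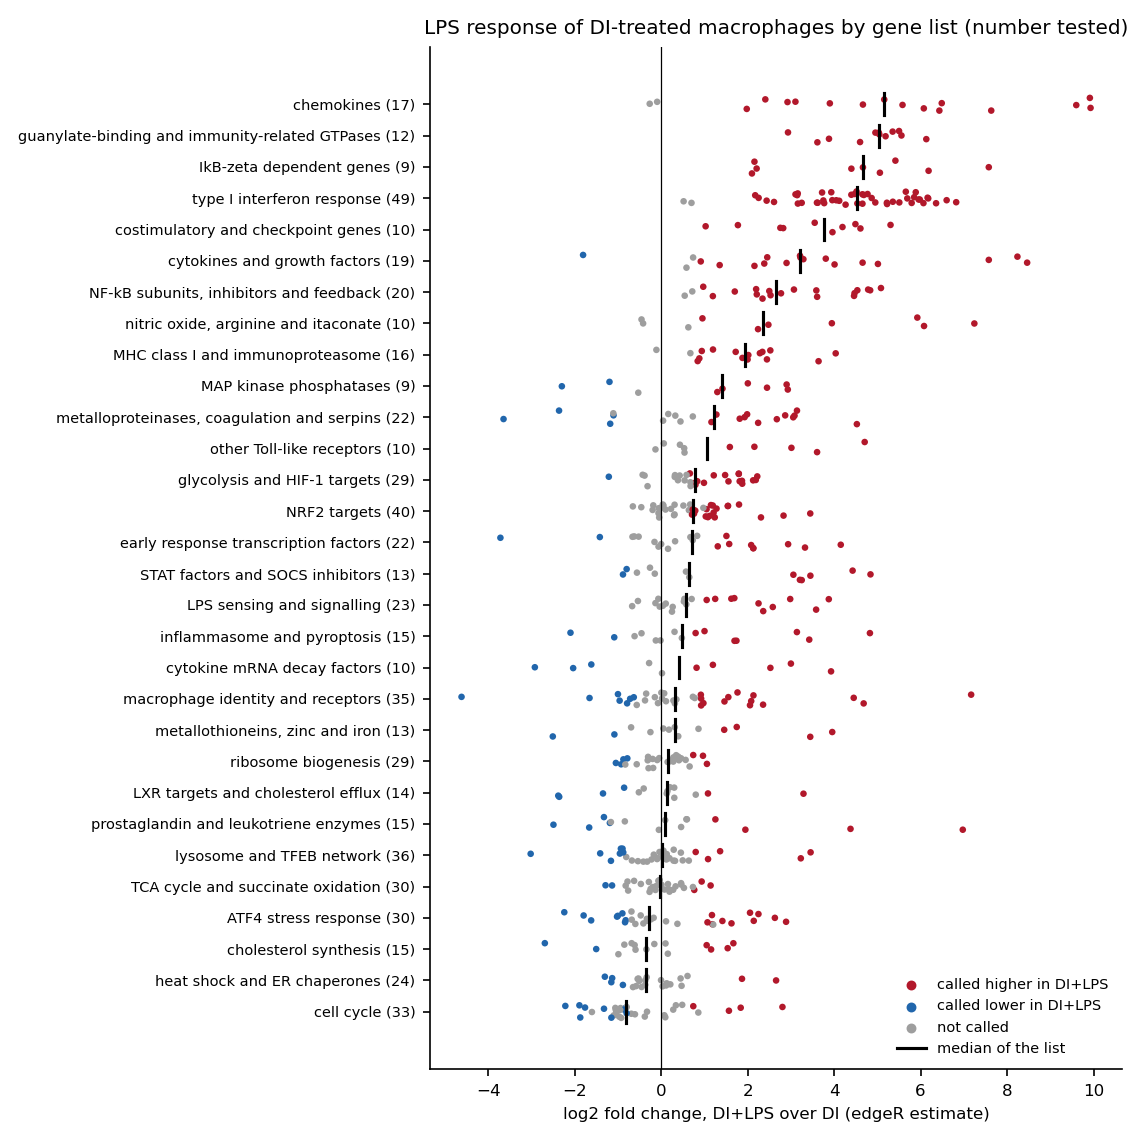
Log2 fold change of each tested gene in DI+LPS over DI, by gene list (number tested in brackets), ordered by the median (black line); red points were called higher in DI+LPS, blue points lower and grey points were not called. Medians run from 5.16 for chemokines down to -0.83 for cell cycle genes.

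Part of the list of NRF2 targets, which the compound is known to raise by itself, rose further with LPS. Of 40 tested genes 21 rose and none fell, with a median log2 fold change of 0.73. With library totals alone 7 rose and 5 fell (median 0.15), and 9 rose when the 12 libraries of the experiment were fitted together, so the size of this group's change depends on the scaling and on the fit. Slc7a11, Hmox1, Sqstm1 and Srxn1 were called under both. Slc7a11 (Entrez 26570, chr3:50364936-50499087), the cystine importer that feeds glutathione synthesis, had 892, 729.5 and 778 CPM in DI+LPS libraries, against 58.9, 45.1 and 116 CPM in DI libraries, a log2 fold change of 3.45 ± 0.32 (SE, adjusted p = 4.3e-08). Hmox1 (Entrez 15368, chr8:75093618-75100593), heme oxygenase 1, had 961, 602 and 1028 CPM in DI+LPS libraries, against 172, 233 and 119 CPM in DI libraries, a log2 fold change of 2.31 ± 0.29 (SE, adjusted p = 2.9e-06). Sqstm1, the autophagy receptor p62, averaged 5917 ± 749.9 CPM in DI+LPS libraries and 834 ± 131 CPM in DI libraries, and Srxn1, sulfiredoxin, averaged 1119 ± 117 CPM in DI+LPS libraries and 322 ± 30.8 CPM in DI libraries (SD, n = 3 each).

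The smaller NRF2 responses were less stable. Gclc, the catalytic subunit of glutamate-cysteine ligase, had 1448, 2192 and 1052 CPM in DI+LPS libraries, against 813, 492 and 688 CPM in DI libraries, and its log2 fold change was 1.24 ± 0.29 (SE, adjusted p = 0.0023). That call was lost with library totals alone (adjusted p = 0.066) and with 12 libraries fitted (adjusted p = 0.054). Nqo1, a quinone reductase used as a marker of NRF2, had 114, 99.6 and 103 CPM in DI+LPS libraries, against 55, 83.1 and 49.1 CPM in DI libraries. Its log2 fold change of 0.76 ± 0.26 (SE, adjusted p = 0.028) was not called without the first DI, the third DI or the first DI+LPS library (adjusted p = 0.1, 0.13 and 0.1), with library totals alone (0.54) or with 12 libraries (0.27). Gclm, Cat, Mgst1 and Gstm1 did not pass, with log2 fold changes of 0.29, 0.05, -0.05 and -0.01. Prdx1, a peroxidase, had 107762, 108897 and 176709 CPM in DI+LPS libraries, against 40327, 56696 and 37863 CPM in DI libraries. It was the most abundant gene in each library, and its log2 fold change of 1.54 ± 0.30 (SE, adjusted p = 0.0004) was not called with 12 libraries fitted (adjusted p = 0.079). Prdx1 and the ferritin gene Ftl1 have processed copies in the genome, so the assignment of their counts is uncertain. The ferritin heavy chain Fth1, at 26007 CPM in DI+LPS and 16722 CPM in DI, had an adjusted p of 0.066.

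Genes of the amino acid and endoplasmic reticulum stress responses did not move as a block. Of 30 ATF4-associated genes tested 10 rose and 8 fell, with a median of -0.28 (4 and 12 with library totals alone), and the number that fell was 4 without the second DI library and 5 without the second or the third DI+LPS library. Ppp1r15a (GADD34), Cebpb and Nupr1 rose by 2.63, 2.14 and 2.89. Atf4 itself did not pass, with 444 CPM in DI+LPS and 502 CPM in DI, and Ddit3 (CHOP) and Trib3, which ATF4 is known to induce, fell by 1.62 and 1.80 on the log2 scale. Ddit3 had 17.2, 17.1 and 23.3 CPM in DI+LPS libraries, against 73.8, 50.9 and 52 CPM in DI libraries. Among 24 heat shock and chaperone genes 2 rose and 4 fell, and with library totals alone 2 rose and 13 fell. Hspa1a and Hspa1b, near-identical copies whose counts may be shared, were at 9.88 CPM in DI+LPS and 2.66 CPM in DI, and 22.8 CPM in DI+LPS and 3.49 CPM in DI, while Hsp90aa1, Hsp90ab1, Hspa8 and Hspa5 did not pass.

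Glycolysis and HIF-1 target genes rose in 17 of 29 tested, with 1 fall (median 0.77). Pfkp and Pfkl, which encode phosphofructokinase, averaged 116 CPM in DI+LPS and 25 CPM in DI for Pfkp, and 48.9 CPM in DI+LPS and 13.4 CPM in DI for Pfkl. P4ha1, a collagen prolyl hydroxylase that HIF-1 induces, had 547, 551 and 626 CPM in DI+LPS libraries, against 103, 167 and 127 CPM in DI libraries. Slc2a1, the glucose transporter, Slc16a3, the lactate exporter, and Hif1a rose by 1.81, 1.87 and 1.48. Fewer of these genes passed with library totals alone or with 12 libraries fitted, 10 in each case. Bnip3l, a mitophagy receptor, was the gene that fell, at 371 CPM in DI+LPS and 861 CPM in DI.

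The TCA cycle list stayed near the median of all genes (-0.03), with 3 of 30 tested genes higher and 2 lower. Sdha, the catalytic subunit of succinate dehydrogenase, which itaconate inhibits as an enzyme, had 49.8, 39 and 49 CPM in DI+LPS libraries, against 53.4, 45.5 and 42.1 CPM in DI libraries. Its groups overlapped, with a log2 fold change of -0.03 ± 0.25 (SE, adjusted p = 0.94), and Sdhb, Sdhc and Sdhd did not pass either. Idh1, the cytosolic isocitrate dehydrogenase, fell to 165, 163 and 178 CPM in DI+LPS libraries, against 372, 351 and 392 CPM in DI libraries, and Pdha1, of the pyruvate dehydrogenase complex, was at 7.97 CPM in DI+LPS and 19.8 CPM in DI. Cs, citrate synthase, was higher by 0.93 on the log2 scale, a call that was lost with library totals alone (adjusted p = 0.27), under which 9 genes of the list fell and none rose.

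Lysosomal and sterol genes showed single strong changes within lists that were mixed. Tfeb, a master regulator of lysosomes, fell by 3.02 on the log2 scale, to 2.93, 2.74 and 1.24 CPM in DI+LPS libraries, against 14.8, 25.3 and 18.2 CPM in DI libraries. Its relative Tfec, which is enriched in macrophages, had 355, 276 and 377 CPM in DI+LPS libraries, against 24.4, 36.9 and 30.8 CPM in DI libraries. Those 2 transcription factors of one family thus changed in opposite directions, each without overlap. Over 36 lysosomal genes 5 rose and 7 fell, with 3 and 16 under library totals alone. Abcg1, the cholesterol exporter and LXR target, had 43.9, 58.2 and 51.5 CPM in DI+LPS libraries, against 264, 205 and 319 CPM in DI libraries, while Abca1 did not pass (log2 fold change -0.52, adjusted p = 0.16). Rxra, the partner of LXR, fell by 2.39, and Ch25h, which makes 25-hydroxycholesterol and is induced by interferon, was at 6.38 CPM in DI+LPS and 0.652 CPM in DI. Of 15 sterol synthesis genes 4 rose and 2 fell (2 and 5 with library totals alone).

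Proliferation genes were mostly low in both groups. Of 33 tested 4 rose and 9 fell (median -0.83), with 2 and 23 under library totals alone, but the number that fell was unsteady, 3 without the first DI library, 2 without the second, 5 without the second DI+LPS library and 1 with 12 libraries fitted. Cdkn1a, the cell cycle inhibitor p21, was an abundant exception, with 2832, 4071 and 2397 CPM in DI+LPS libraries, against 309, 238 and 785 CPM in DI libraries and a log2 fold change of 2.80 ± 0.37 (SE, adjusted p = 5.5e-06). Pcna was another, at 291 CPM in DI+LPS and 174 CPM in DI (adjusted p = 0.049). Its call was lost without the second or the third DI library (adjusted p = 0.18 and 0.2), and without any 1 of the DI+LPS libraries (0.057 to 0.14). Ccnd2, cyclin D2, rose by 1.84 ± 0.31 (SE, adjusted p = 8.3e-05), while Mki67 at 11.7 CPM in DI+LPS and 18.2 CPM in DI did not pass. In ribosome biogenesis 3 of 29 tested genes rose and 4 fell, none were called with 12 libraries fitted, and with library totals alone 11 fell and none rose.

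Receptors and identity genes of macrophages changed in both directions. Of 35 tested 14 rose and 7 fell, with 10 and 12 under library totals alone. Clec4e, the glycolipid receptor Mincle, had 421, 369.9 and 363 CPM in DI+LPS libraries, against 3.91, 0.661 and 3.06 CPM in DI libraries, a log2 fold change of 7.17 ± 0.41 (SE, adjusted p = 5.3e-11). Marco, a scavenger receptor, and C3, complement component 3, rose by 4.68 ± 0.40 (SE, adjusted p = 1e-08) and 4.45 ± 0.29 (SE, adjusted p = 2.1e-10). Fcgr1, the high-affinity receptor for IgG, rose by 2.35, and Adgre1, which encodes F4/80, was at 1670.1 CPM in DI+LPS and 570.3 CPM in DI. Fcgr3, a low-affinity receptor for IgG, and Itgam, the integrin CD11b, fell by 1.00 and 0.79 on the log2 scale. The number of falls in the list was 4 in each fit that left out 1 library, and 2 with 12 libraries. Trem2 and Clec7a, which encodes Dectin-1, did not pass, with log2 fold changes of -0.15 and 0.02.

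Secreted proteases and their controls mostly rose, in 12 of 22 tested, with 4 falls. Mmp13, a collagenase, had 605, 597 and 639 CPM in DI+LPS libraries, against 67.6, 77 and 72.7 CPM in DI libraries, and Mmp14 and Plaur, the urokinase receptor, rose by 3.05 and 3.14. Thbd, thrombomodulin, nearly disappeared, with 0.195, 0 and 1.86 CPM in DI+LPS libraries, against 7.93, 7.6 and 8.65 CPM in DI libraries. Metallothioneins, which bind zinc, rose, Mt2 at 537, 487 and 685 CPM in DI+LPS libraries, against 46.7, 29.3 and 34.1 CPM in DI libraries and Mt1 by a smaller log2 fold change of 1.45 ± 0.26 (SE, adjusted p = 0.00019). The metal importers Slc39a14 and Slc11a2 rose by 3.45 and 1.74 on the log2 scale, while the iron exporter Slc40a1, ferroportin, and the ferrireductase Steap3 fell by 1.09 and 2.51 on the log2 scale.

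The deepest falls among genes of at least 10 CPM left some of them with a few counts. Pdcd4, a repressor of translation, had 0.195, 0.305 and 0 CPM in DI+LPS libraries, against 34.6, 37.4 and 18.7 CPM in DI libraries, and 2 counts over the DI+LPS group gave a ratio of 0.00593 (95% counting interval 0.000717 to 0.0215). Lpin1, the phosphatidate phosphatase lipin 1, had 2.73, 8.53 and 3.41 CPM in DI+LPS libraries, against 163, 161 and 155 CPM in DI libraries, a log2 fold change of -5.07 ± 0.36 (SE, adjusted p = 7.9e-10). Il6ra, the interleukin 6 receptor, had 11.1, 14 and 13.6 CPM in DI+LPS libraries, against 175, 218 and 309 CPM in DI libraries. It fell 18.2-fold in the samples in which its ligand Il6 rose 191-fold. Cerk, ceramide kinase, fell by 4.12, Gcnt1, which builds core 2 O-glycans, by 5.36, Arhgap19 by 4.68, and Slc26a11 by 4.33 on the log2 scale. Tmem86a, Eepd1 and Kctd12b fell with them, by 6.53, 4.94 and 4.08. These genes were named from those whose libraries did not overlap between groups, so their lack of overlap is no added support. Their calls held in each fit that left out 1 library and with 12 libraries fitted.

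To ask whether the compound altered the response, the log2 response of DI+LPS over DI was compared with that of LPS over vehicle in one fit of 12 libraries, with levels scaled over all 12. The LPS libraries were shallower, 3761119, 2294042 and 955718 counts, than the vehicle libraries with 7010265, 2228760 and 4367091. Of 10285 genes tested, the log2 difference of responses was called above 0 for 143 (1.39%) and below 0 for 156 (1.52%), 2.91% together, and the median over all genes was 0.17. The sign of the difference is not the size of the response, since a fall that was weaker with the compound also gives a difference above 0. Of the 143, both responses were falls for 63, both were rises for 19 and they were opposite in sign for 61, and the fitted response was smaller in size with the compound for 107. Of the 156, both were rises for 117, and the response was smaller in size with the compound for 146. On simulated counts this fit recovered a smaller share of changes than the main comparison, and a larger share of its calls was false, so a gene without a call may still have differed. The counts depended on the shallowest library: without the third LPS library they were 346 above 0 and 460 below 0. Without the first LPS library 344 were above 0. Leaving out any 1 DI or DI+LPS library, or the first or the third vehicle library, lowered them to between 52 and 70 above 0 and between 78 and 99 below 0.

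Several inflammatory genes responded less to LPS in compound-treated cells than in cells without it. Il12b averaged 8.51 CPM in DI+LPS, 1.82 in DI, 234 in LPS and 0.366 in vehicle libraries, a log2 difference of responses of -6.71 ± 0.84 (SE, adjusted p = 0.00023). Il1b averaged 166 CPM in DI+LPS, 5.06 in DI, 1269 in LPS and 3.39 in vehicle libraries, a difference of -3.60 ± 0.72 (SE, adjusted p = 0.011). For Il12b the 3 DI+LPS libraries stayed under every LPS library, and the same held for Il1b. Socs3, Il1rn and Ccl2 differed by -4.78 ± 0.59 (SE, adjusted p = 0.00023), -3.68 ± 0.45 (SE, adjusted p = 0.00023) and -3.41 ± 0.49 (SE, adjusted p = 0.0006). Lipg (endothelial lipase) and Edn1 (endothelin 1) were well detected in LPS libraries only: Lipg averaged 4.95 CPM in DI+LPS, 1.32 in DI, 431 in LPS and 0.777 in vehicle libraries, and Edn1 averaged 2.48 CPM in DI+LPS, 0.967 in DI, 233 in LPS and 0.427 in vehicle libraries, with adjusted p = 0.00046 and 0.00072. Nos2 averaged 5.17 CPM in DI+LPS, 0.881 in DI, 155 in LPS and 0 in vehicle libraries (adjusted p = 0.0042, or 0.063 without the first DI library). Il6 had a difference of -3.84 ± 1.06 (SE, adjusted p = 0.058), which missed the threshold.

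Among interferon-linked genes, Cxcl10 and Gbp5 responded less, with differences of -3.78 ± 0.68 (SE, adjusted p = 0.0046) and -2.95 ± 0.50 (SE, adjusted p = 0.003). Cxcl10 averaged 4477 CPM in DI+LPS, 65.8 in DI, 8051 in LPS and 8.61 in vehicle libraries, and its libraries overlapped after LPS but not before it. Its log2 responses were 6.09 with the compound and 9.87 without it. Ifit1 was not called, with a difference of -1.98 ± 0.63 (SE, adjusted p = 0.099). Acod1 averaged 14267 CPM in DI+LPS, 93.1 in DI, 14870.0 in LPS and 13 in vehicle libraries, so that its libraries overlapped after LPS and not before it. Its log2 response was 7.26 with the compound and 10.18 without it. The difference of -2.92 ± 0.67 (SE, adjusted p = 0.023) was lost as a call in 6 of the fits that left out 1 library, without the first or the third library of DI, DI+LPS or vehicle (adjusted p = 0.065 to 0.087). Ptgs2 differed by -3.55 ± 0.81 (SE, adjusted p = 0.023), a call lost without the first or the third DI or DI+LPS library or the third vehicle library (adjusted p = 0.055 to 0.087). It averaged 680 CPM in DI+LPS, 5.21 in DI, 966 in LPS and 0.523 in vehicle libraries. Its libraries, too, overlapped after LPS and not before it.

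Mir155, the gene of the microRNA miR-155, gave the lowest adjusted p of the genes named in this comparison of responses. It averaged 32.7 CPM in DI+LPS, 3.4 in DI, 282 in LPS and 0.118 in vehicle libraries (adjusted p = 1.5e-05), and 3 counts over the vehicle group make its fitted size of change depend on the prior count. The libraries counted polyadenylated RNA, so these values are of polyadenylated RNA counted to this gene and not of the mature microRNA. The mature 5p strand that Mir155 encodes is shown for identity, with the seed (bases 2 to 8) in capitals (RefSeq, GRCm38.p6, chr16:84714143-84714165, plus strand).
mmu-miR-155-5p: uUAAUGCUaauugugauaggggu

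Cxcl2 and Hmox1 rose more with LPS in compound-treated cells than in cells without the compound. Cxcl2 averaged 21065 CPM in DI+LPS, 21.5 in DI, 2032 in LPS and 22.2 in vehicle libraries, a log2 difference of 3.42 ± 0.51 (SE, adjusted p = 0.00077), and its LPS libraries lay below all of its DI+LPS libraries. Gclc averaged 1569.9 CPM in DI+LPS, 661 in DI, 12.7 in LPS and 55.5 in vehicle libraries, with fitted log2 responses of 1.25 with the compound and -1.94 without it, opposite in sign. Their difference was 3.19 ± 0.65 (SE, adjusted p = 0.012). Hmox1 differed by 1.98 ± 0.51 (SE, adjusted p = 0.041), a call lost in 9 of the 12 fits that left out 1 library (adjusted p = 0.05 to 0.12). It held without the second DI, the second DI+LPS or the third LPS library.

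The other named genes with a difference called above 0 had a lower mean level after LPS in cells without the compound. In cells with it, their fall on the log2 scale was smaller or absent. Tacc2 and Foxo3 had 1 and 2 counts over the LPS group, and averaged 67.4 CPM in DI+LPS, 42.5 in DI, 0.187 in LPS and 9.72 in vehicle libraries for Tacc2, and 8.81 CPM in DI+LPS, 20.9 in DI, 0.221 in LPS and 31.2 in vehicle libraries for Foxo3 (adjusted p = 0.00045 and 0.0069). Dnmt1, the maintenance DNA methyltransferase, was at 0 in all LPS libraries and averaged 7.12 CPM in DI+LPS, 27.8 in DI, 0 in LPS and 21.8 in vehicle libraries (adjusted p = 0.0042). For Foxo3 and Dnmt1 the mean level was lower after LPS with and without the compound, and the fall was smaller with it. At the depth of the LPS libraries, a gene at 0 there may still be present below the level of 3 counts.

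Other genes gave no call. Tnf averaged 688 CPM in DI+LPS, 1.91 in DI, 539 in LPS and 2.08 in vehicle libraries, a difference of 0.59 ± 0.64 (SE, adjusted p = 0.69). Nfkbia, Tnfaip3 and Nfkbiz differed by -0.53 ± 0.41 (SE, adjusted p = 0.54), -0.53 ± 0.46 (SE, adjusted p = 0.6) and 0.70 ± 0.62 (SE, adjusted p = 0.61), and Slc7a11 and Nqo1 by -0.71 ± 0.60 (SE, adjusted p = 0.58) and -1.07 ± 0.67 (SE, adjusted p = 0.43). These standard errors of 0.41 to 0.67 leave room for a difference in either direction. Prdx1 averaged 131509 CPM in DI+LPS, 44774 in DI, 131587 in LPS and 11656 in vehicle libraries, a difference of -1.94 ± 0.83 (SE, adjusted p = 0.22). Its LPS mean rested on the third and shallowest LPS library. The LPS libraries had 47509, 42229 and 305024 CPM, against 108252, 109369 and 176906 CPM in DI+LPS libraries.

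**Figure D5:**
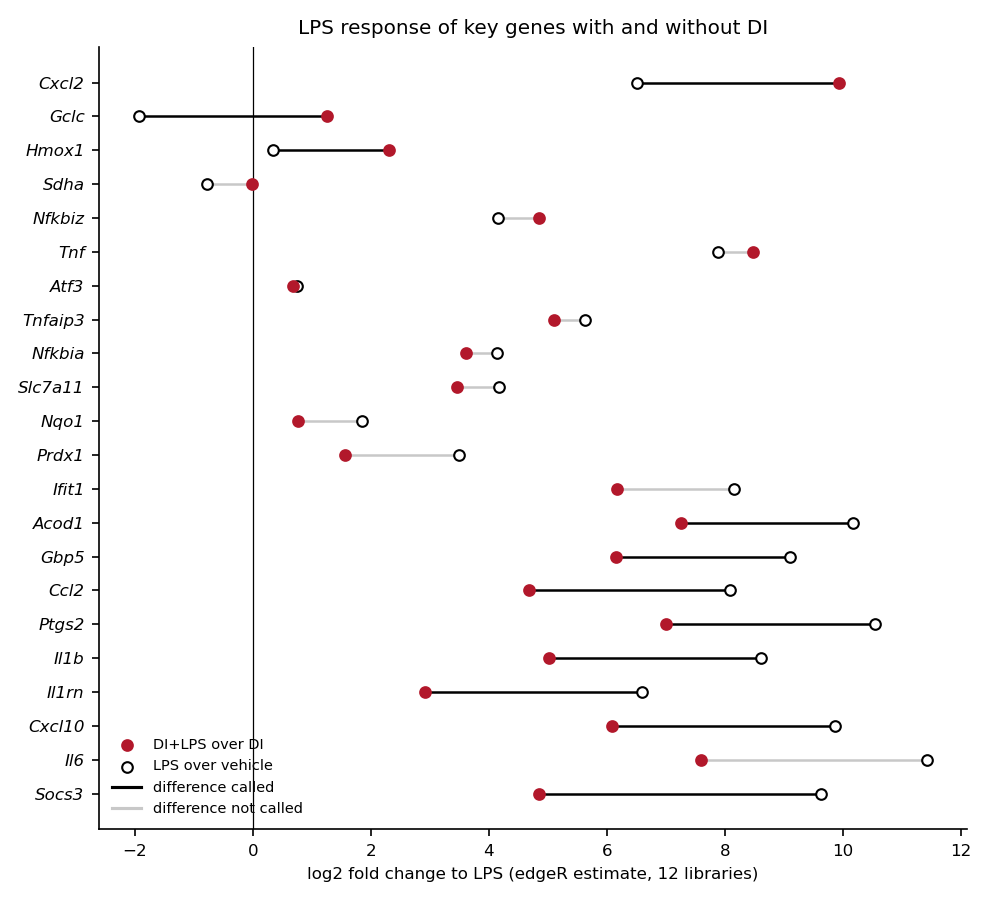
Log2 response to LPS of 22 named genes with the compound (DI+LPS over DI, red) and without it (LPS over vehicle, white), from one fit of 12 libraries; a black connecting line marks a difference of responses that was called. Cxcl2 lies further right with the compound, Il1b, Il1rn and Socs3 further left.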

How the data were processed

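RNA was captured from lysates on oligo-dT beads and primed from the poly(A) tail, so reads mark 3′ ends, and barcoded samples were pooled by Actb level and amplified for 12 PCR cycles, per the labels' protocols. The values are raw counts per gene, as the authors deposited them. Reads were handled with STAR, HTSeq and DESeq2 on mm10, per the submitters' processing notes; the annotation and the strand option for counting are not given in the sources used here, so reads of genes that overlap, on either strand, may be shared between them.

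Samples were grouped by their titles. Of 24052 Entrez genes, 23969 were paired with a symbol. Genes of at least 10 counts by edgeR's filterByExpr were tested with the quasi-likelihood F test (edgeR 4.0.16, limma 3.58.1, R 4.3.3) after TMM scaling, 9766 in the 6 libraries and 10285 in the 12-library fit, with Benjamini-Hochberg adjustment over all of them and a threshold of 0.05. CPM use TMM-scaled totals, and fold changes a prior count of 0.125. Ratios of counts carry exact 95% intervals. Coordinates are those of GRCm38. Depth ran from 4032466 to 7629669 counts in the 6 libraries, at which 3 counts are 0.393 to 0.744 CPM before scaling. Alternatives were DESeq2 1.42.0, other scalings and filters, a replicate block, a fit of 12 libraries, a 2-fold threshold and leaving out each library. Each fitting step was tested on simulated data, where the 12-library comparison of responses recovered a smaller share of changes than the main comparison and a larger share of its calls was false.

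Genes were named by rule: the 12 largest rises and falls among called, non-overlapping genes of at least 10 CPM, up to 4 rises and 3 falls of each list, the 5 most abundant genes, and a fixed set of key genes. For the comparison of responses, the 5 largest differences in each direction and the key genes were named. Other list members given with values were chosen after their values were seen. Members and lists were chosen with earlier results of these data known. The second experiment of the series, with Irg1-deficient cells, was not used here. Some results that the naming rule would give are not reported here.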

Additional observations from a re-analysis of the deposited data

Results flagged for a closer look

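The response to LPS differed between cells with and without the compound for 21 of the named genes, by the interaction term of the 12-library fit at an adjusted p under 0.05 (edgeR). Of these, 10 were named because their differences were the largest in either direction, so their calls are no count to set against all genes. Of the 26 key genes tested, which were chosen with earlier results known, 13 were called, 2 of them among those 10, and 2.91% of all genes tested were called. Groups of 3 libraries were not tested for outlying samples, and on simulated counts 12.4% of the calls of this fit were false. Cxcl2 and Hmox1 rose more with the compound (log2 differences of 3.42 and 1.98). For Tacc2 (6.17) and Gclc (3.19) the fitted response was above 0 with the compound and below 0 without it, and Foxo3 (5.09) fell less with the compound. Tacc2 and Foxo3 had 1 and 2 counts over the LPS group, so their fitted sizes depend on the prior count. Dnmt1, Angptl2 and Abcd2, whose mean levels after LPS were lower with and without the compound, were at 0 in all 3 LPS libraries, so only the adjusted p is given, 0.0042 for Dnmt1, 0.033 for Angptl2 and 0.037 for Abcd2. Angptl2 averaged 13.7 CPM in DI+LPS, 31.3 in DI, 0 in LPS and 11.7 in vehicle libraries, and Abcd2, a transporter of very long chain fatty acids into peroxisomes, averaged 3.42 CPM in DI+LPS, 29.8 in DI, 0 in LPS and 35.8 in vehicle libraries. Neither call held in all fits that left out 1 library: adjusted p reached 0.051 to 0.087 for Angptl2 in 10 such fits and 0.058 to 0.096 for Abcd2 in 9.

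The log2 rise was smaller with the compound for Lipg (-7.88), Edn1 (-7.79), Mir155 (-7.38), Il12b (-6.71), Socs3 (-4.78), Cxcl10 (-3.78), Il1rn (-3.68), Il1b (-3.60), Ptgs2 (-3.55), Ccl2 (-3.41), Gbp5 (-2.95) and Acod1 (-2.92). For Cxcl10, Ptgs2 and Acod1 the DI+LPS and LPS libraries overlapped, and the DI libraries lay above the vehicle libraries. Mir155 had 3 counts over the vehicle group, so its fitted size depends on the prior count. Nos2 was at 0 in all vehicle libraries, and its adjusted p was 0.0042. The third LPS library held 955718 counts, the fewest of the 12, and its part in these differences was checked only by leaving it out, which kept all 299 calls of the fit and added others.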

How the results depend on the processing

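Of 1657 genes higher and 1539 lower in DI+LPS, counts ran from 1411 to 1622 higher and from 1216 to 1518 lower when any 1 library was left out. Scaling by library totals gave 919 higher and 3792 lower, so that 19.5% of calls were higher, against 51.9% with TMM. A test against 2-fold gave 747 and 437, and a fit of 12 libraries gave 1170 and 778. With the replicate number as a block there were 1476 higher and 1308 lower, and 108 differences of responses above 0 and 149 below 0. Deviations of same-numbered DI+LPS and DI libraries correlated at 0.0439, -0.0103 and -0.153. Those of different-numbered libraries correlated at -0.104 to 0.0957. No pairing by number was seen, but so few values cannot exclude a pairing. The cause of the shifts in the numbers of calls was not tested.

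Of 143 differences of responses above 0 and 156 below 0, DESeq2 called 380 and 382, and without a filter on low counts there were 236 and 261. Leaving out 1 library gave 52 to 346 above 0 and 78 to 460 below 0. Both highest counts came without the third LPS library, and the lowest came without the first DI library for those above 0 and without the first vehicle library for those below 0.

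Of 215 called genes among those named, 58 lost the call in the test against 2-fold and 23 in at least 1 fit without a library. With 12 libraries fitted 30 lost it, with library totals 18 and with DESeq2 3. Signs turned only for genes that did not pass the test in these fits. Sdha ran from -0.10 to 0.082 and Malat1 from -0.60 to 0.38 without 1 library, and Malat1 was -0.52 with library totals and -0.073 with the block. The difference of responses ran from -0.50 to 1.02 for Tnf and from -0.41 to 0.26 for Atf3. At the depth of these libraries 3 counts were 0.393 to 0.744 CPM before scaling, which limits genes near that level.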

Other observations

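Other named genes lay outside the groups described above. In the Ms4a cluster on chromosome 19, which encodes tetraspanning membrane proteins of immune cells, 4 of 5 tested genes rose. Ms4a4c had 42.9, 34.4 and 36.9 CPM in DI+LPS libraries, against 0.592, 0.331 and 1.27 CPM in DI libraries, while Ms4a7 did not pass, with 1037 CPM in DI+LPS and 990.1 CPM in DI. Next to Il1b on chromosome 2, Il1a rose with 18.3, 17.7 and 23.3 CPM in DI+LPS libraries, against 2.25, 0.165 and 3.27 CPM in DI libraries. The gene of thymosin beta 4, Tmsb4x, which binds actin monomers and was among the 5 most abundant transcripts, had 19052, 15222 and 21530.2 CPM in DI+LPS libraries, against 6155, 8508 and 6762 CPM in DI libraries. Malat1, a nuclear long noncoding RNA that was also among them, had 7959, 19360.3 and 6154 CPM in DI+LPS libraries, against 7674, 15080.2 and 9561 CPM in DI libraries, with a log2 fold change of 0.05 ± 0.36 (SE, adjusted p = 0.93). Heatr9 had 46.2, 46.9 and 55.5 CPM in DI+LPS libraries, against 0.237, 0.165 and 0.211 CPM in DI libraries, a log2 fold change of 7.76 ± 0.42 (SE, adjusted p = 2.9e-11). Ass1, argininosuccinate synthase, which regenerates arginine, had 4.68, 8.23 and 8.99 CPM in DI+LPS libraries, against 0, 0.331 and 0 CPM in DI libraries, and 2 counts over the DI group gave a ratio of 82.4 (95% counting interval 22.1 to 692). No hypothesis was tested on these values.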
